A study of Homo sapiens with 8 samples.

Results

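Histone acetylation is set by acetyltransferases, removed by histone deacetylases, read by bromodomain proteins, and used by corepressor complexes that bring deacetylases to promoters. RNA of 47 genes with these roles was followed on the arrays: 4 class I deacetylases, 4 class IIa, 3 class IIb and IV, 7 sirtuins, 9 acetyltransferases and coactivators, 8 bromodomain readers and BRPF scaffolds, and 12 corepressor subunits. The genes were taken by their symbols on the array, where 36337 gene symbols are named in all, and they matched 76 probes. Of the 47 genes, 28 had 1 probe and 19 had several. Where a gene had several, the probe with the highest mean level over the 8 arrays stood for it.

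The cells were DLD1, an established human colorectal cancer line that the study describes as having a CpG island methylator phenotype. They received a control siRNA (siCONT) or an siRNA against UHRF1 (siUHRF1-1 or siUHRF1-2), and 48 h later either ethanol (mock) or 300 nM trichostatin A (TSA) for 24 h. UHRF1 recruits the maintenance methyltransferase DNMT1 to replicating DNA, and TSA inhibits the zinc-dependent deacetylases of classes I, II and IV but not the NAD-dependent sirtuins. The siRNA and the agent were crossed, which gave 4 groups of 2 arrays each, and the 2 arrays of a depleted group carried the 2 different siRNAs. The mock siCONT cells are the common control of 3 of the comparisons and enter the interaction, so those results share arrays.

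Class I enzymes such as HDAC1, HDAC2 and HDAC3 are the catalytic core of the SIN3, NuRD, CoREST and NCoR corepressor complexes. EP300 and CREBBP are paralogous acetyltransferases recruited to enhancers, while KAT2A and KAT2B are the alternative catalytic subunits of the SAGA and ATAC complexes. Bromodomains bind acetyl-lysine, and the genes of the list that carry one include BRD2, BRD3 and ATAD2.

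Each level is a log2 processed intensity from which the 75th percentile of its array was subtracted, on the log2 scale. Levels of different probes cannot be set against each other. A gene is said to have risen or fallen when limma gave an adjusted p below 0.05 over all probes tested together with a change of at least 2-fold. The 2 siCONT arrays of an agent differed by about the noise between repeated spots, and nothing states that they came from separate cultures. They were therefore counted as 1 sample in means (n = 1, with no SD), whereas a depleted group is given as mean ± SD over its 2 siRNAs (n = 2). Counts are also given from a fit in which each siCONT pair was averaged to 1 sample, since p-values of the fit over 8 arrays rest in part on that small spread.

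Of the 47 genes, 45 were well above background on all 8 arrays. HDAC9, a class IIa deacetylase, had no probe well above background on any array, and it was not tested. The nuclear receptor coactivator NCOA2 was above background on 6 arrays and was not tested in the comparison of the combined treatment with the control. UHRF1 was measured at 1.98 and 2.01 in siCONT mock cells, at 0.34 and -0.02 after depletion, at 1.04 and 1.01 in siCONT cells with TSA, and at -1.55 and -2.14 in depleted cells with TSA. Its depletion came to -1.83 under mock (adjusted p = 0.012) and to -2.87 under TSA (adjusted p = 0.0023). The 9 colon epithelium markers were above background on all arrays, with a log2 sum of their scaled signals between 10.48 and 10.998. Within this list KRT20 rose with depletion under mock (2.94 log2, adjusted p = 0.0134), and VIL1 fell with TSA in siCONT cells (-1.42, adjusted p = 0.0267) and in depleted cells (-2.50, adjusted p = 0.00366). Of 9 markers of other cell types, CD14 was above background on all arrays, and COL1A2, COL3A1, PTPRC, CD3E and PECAM1 were on none. VIM, COL1A1 and VWF rose with TSA in siCONT cells (changes of 4.16, 3.80 and 3.99 log2), VWF also rose with depletion under mock (2.66, adjusted p = 0.00743), and the log2 sum of these 9 markers lay between -0.58 and 1.18 on mock arrays and between 1.53 and 2.43 on TSA arrays. All mock arrays lay in row 1 of the slide and all TSA arrays in row 2, and for every TSA value that follows the agent and the row cannot be told apart. The siCONT arrays lay in columns 1 and 2 and the siUHRF1 arrays in columns 3 and 4. For every value of depletion, alone or with TSA, the siRNA and the column likewise cannot be told apart. Of 2 genes known to rise with deacetylase inhibitors, H1F0 changed by -1.02 with TSA in siCONT cells (adjusted p = 0.11) and CDKN1A by -0.22 (adjusted p = 0.83), and neither passed. In depleted cells TSA changed them by 0.49 (adjusted p = 0.417) and 2.26 (adjusted p = 0.0586), which did not pass either. The CDKN1A probe was above background on 6 arrays only, and its 2 depleted mock arrays stood far apart, at -2.43 and -4.895.

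The combined treatment lowered more of these genes than it raised. Comparing depleted cells with TSA with siCONT cells with mock, 12 of 45 tested genes fell and 1 rose, against 11.1% of all genes tested that fell and 15.3% that rose. Those that fell were CHD3, HDAC10, HDAC7, KAT2A, ATAD2, BRD8, MTA2, RBBP7, HAT1, MTA1, BRD9 and SIN3A, and SIRT2 was the gene that rose. Without a fold minimum, 23 genes had an adjusted p below 0.05 and a lower level, and 2 (SIRT2 and CREBBP) a higher one, whereas 26.8% of all genes were lower and 21.6% higher by that measure. The median change of the 45 genes was -0.50 log2 beside -0.14 for all genes tested. With the siCONT pairs counted as 1 sample, 6 of the genes passed (SIRT2, CHD3, HDAC10, HDAC7, KAT2A and BRD8), where 16.2% of all genes did.

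The count of genes that fell depended on the scaling. It was 12 with the 75th percentile of all probes, 6 with quantile normalization, 6 with the percentile taken over probes above background on all arrays, 8 after normexp background correction and 20 with scaling to the array median. The median of all genes moved with it, from -0.54 with median scaling to 0.10 with the percentile of detected probes. The median of the 45 genes minus that of all genes was -0.36 log2 with the 75th percentile. Median scaling and the percentile of detected probes shift all genes of an array alike, so they could not change this gap. It was -0.30 both with quantile normalization and after normexp.

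**Figure D1:**
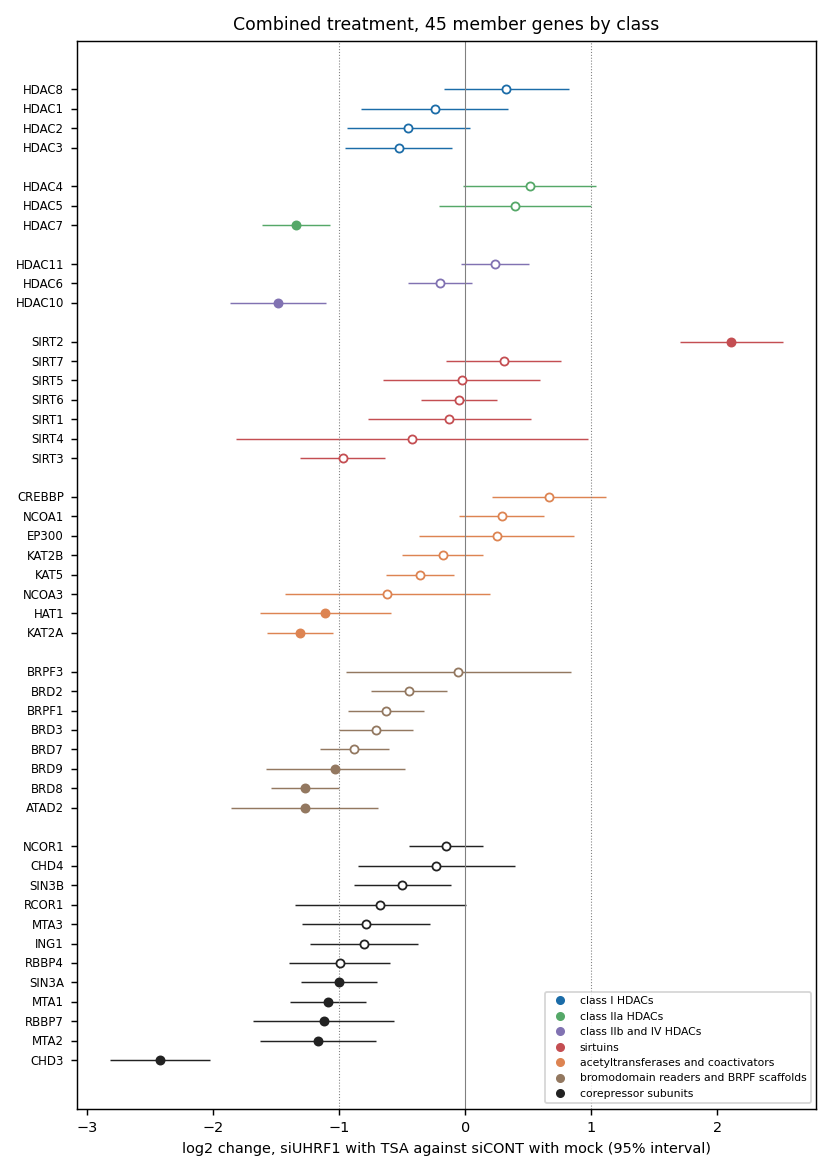
Change of 45 tested genes in depleted cells with TSA against the mock siCONT cells, scaled to the 75th percentile, on the log2 scale with 95% intervals from limma, grouped and coloured by class. Each gene is shown by the probe that stands for it. Filled points passed the test, dotted lines mark a 2-fold change, and all 12 corepressor subunits and all 8 bromodomain readers and scaffolds lie left of 0.

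Among the classes of the 47 genes, the corepressor subunits had the lowest median change, -0.90 log2. With this scaling all 12 had a negative change on the probe that stands for the gene, as did 10257 of all 17866 genes tested. Of the 12, 5 fell, and 9 had an adjusted p below 0.05 at any fold. The median of this class stayed negative under the 5 scalings, between -0.66 and -1.30. The 8 bromodomain readers and scaffolds had a median change of -0.80 (range over the scalings -0.56 to -1.20). Of these 8 genes, 3 fell and 7 had an adjusted p below 0.05 at any fold. Outside the 47 genes the medians were nearer to that of all genes, -0.33 for other corepressor subunits and -0.44 for other acetyl-lysine readers. By comparison, on the probes that stand for the genes, the 4 class I deacetylases had a median of -0.35 with none past the test. The 7 sirtuins had a median of -0.05 that turned positive with other scalings (0.19 with the percentile of detected probes). Further probes of these classes went both ways. Mean levels in the control and after the combined treatment were -1.88 and -0.62 for HDAC8 A_33_P3296807. They were -3.01 and -1.67 for SIRT5 A_23_P307955, and -1.01 and -2.01 for HDAC8 A_23_P84922.

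CHD3, an ATPase subunit of the NuRD complex, changed most. Its level was 4.0 and 3.99 in siCONT mock cells, 3.51 and 3.48 after depletion, 2.00 on both siCONT arrays with TSA, and 1.79 and 1.35 in depleted cells with TSA. The TSA arrays lay below all mock arrays without overlap. The change under the combined treatment was -2.42 ± 0.16 log2 (SE), that is 5.36-fold lower (adjusted p = 0.000225, and 0.0116 with the siCONT pairs as 1 sample). CHD4, the alternative ATPase of NuRD, stood at 2.73 and 2.75, at 3.43 and 2.61, at 2.55 and 2.63, and at 2.50 and 2.51 in the same order of groups. Its change of -0.23 did not pass the test, with a 95% interval from -0.85 to 0.39. The 2 siRNAs differed by 0.82 for CHD4 under mock, the widest gap among the 45 genes in that group.

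The other NuRD subunits that fell were MTA1, MTA2 and RBBP7. MTA1 was 4.67 and 4.71 in the control and 3.58 and 3.62 after the combined treatment, a change of -1.09 ± 0.12 log2 (SE, adjusted p = 0.00113). MTA2 was 1.74 and 1.75 in the control and 0.83 and 0.32 after the combined treatment (-1.17 ± 0.19, adjusted p = 0.00381). In both genes the treated arrays lay below the control arrays, and for MTA2 the siUHRF1-2 array was the lower one. The paralog MTA3 had a change of -0.79 (adjusted p = 0.0235), below the 2-fold limit. RBBP7, a histone chaperone shared by NuRD and SIN3, went from 5.29 and 5.35 to 4.47 and 3.92 (-1.13 ± 0.23, adjusted p = 0.00937). Its paralog RBBP4 had -1.0 on the log2 scale, or 1.997-fold lower, so that it missed the 2-fold limit (adjusted p = 0.0043). Of its other 3 probes, A_23_P326691 fell by 1.04.

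SIN3A, the scaffold of the SIN3 complex, was 1.94 and 2.01 in the control, 1.60 and 1.38 after depletion, 1.24 and 1.31 with TSA, and 0.96 and 0.98 with both. Each treatment group lay below the control, and the change of the combined treatment was -1.0 ± 0.12 (SE, adjusted p = 0.0015), at the 2-fold limit. SIN3B had a change of -0.50 and ING1, a SIN3 subunit that binds methylated H3K4, a change of -0.80, both with an adjusted p below 0.05 and under 2-fold. NCOR1 differed between its probes: the probe that stands for the gene had -0.15 (95% interval from -0.45 to 0.14), and A_23_P141651 had -0.85 (adjusted p = 0.00408). RCOR1, the CoREST scaffold, had -0.68 with an interval from -1.36 to 0.01.

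Among bromodomain proteins, BRD8, ATAD2 and BRD9 fell. BRD8, a subunit of the TIP60 acetyltransferase complex, was 3.91 and 3.86 in the control and 2.63 and 2.60 after the combined treatment, with depletion alone (3.76 and 3.63) and TSA alone (3.27 and 3.19) in between. Its change was -1.27 ± 0.11 (SE, adjusted p = 0.000491). ATAD2, an ATPase with a bromodomain, was 3.73 and 3.79 in the control and 2.67 and 2.30 after the combined treatment, a change of -1.28 ± 0.24 (adjusted p = 0.00674). With TSA in siCONT cells it stood at 3.54 and 3.59, and that change of -0.20 did not pass. BRD9, a subunit of a non-canonical BAF complex, changed by -1.03 ± 0.23 (adjusted p = 0.0118) on the probe that stands for it and by -0.13 on A_21_P0012880, which did not pass. BRD7, BRD3, BRPF1 and BRD2 had changes between -0.88 and -0.45 with an adjusted p below 0.05, and BRPF3 had -0.06 with an interval from -0.95 to 0.84. Another probe of BRD7, A_33_P3234593, went the other way, with mean levels of -2.30 in the control and -2.05 after the combined treatment.

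Of the writers, KAT2A and HAT1 fell. KAT2A was 4.02 and 4.08 in the control, 3.92 on both depleted arrays, 3.06 and 3.01 with TSA, and 2.70 and 2.78 with both. The TSA arrays lay below the mock arrays without overlap, and the combined change was -1.31 ± 0.11 (SE, adjusted p = 0.000403). KAT2B was 0.64 and 0.66, 0.48 and 0.75, 0.71 and 0.72, and 0.42 and 0.52 in these groups, and its change of -0.18 had a 95% interval from -0.50 to 0.14. The interval of KAT2B thus left out the change of KAT2A, though the difference between these paralogs was not tested. HAT1, which acetylates newly made histone H4, was 4.0 and 4.09 in the control, 3.68 and 3.24 after depletion, 3.86 and 3.87 with TSA, and 3.17 and 2.69 with both (-1.11 ± 0.21, adjusted p = 0.00732). The siUHRF1-2 array was the lower one for HAT1 under both agents.

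Proliferation markers were also lower under the combined treatment. All 10 (MKI67, TOP2A, CCNB1, CCNA2, PCNA, MCM2, MCM6, TYMS, RRM2 and CDK1) fell there, with a median change of -1.88. With the siCONT pairs as 1 sample 8 passed by limma, and TOP2A (adjusted p = 0.195) and PCNA (adjusted p = 0.0915) did not. The log2 sum of their scaled signals was 7.59 on both control arrays, 7.67 and 7.32 after depletion, 6.75 on both siCONT arrays with TSA, and 5.47 and 5.39 with both. Their part in the changes of ATAD2, HAT1, RBBP7 and the other genes was not tested. In RNA of a whole culture, fewer cells in a given state and less RNA per cell cannot be told apart.

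TSA alone changed 6 genes in siCONT cells. SIRT2 and HDAC4 rose, and HDAC10, CHD3, SIRT3 and KAT2A fell, that is 2 and 4 of 46 tested genes, where 10.4% of all genes rose and 8.32% fell. With the percentile of detected probes the split was 3 higher and 3 lower. HDAC10 passed with the siCONT pairs as 1 sample (adjusted p = 0.0483), and the other 5 did not, where 1.66% of all genes passed. At any fold, 4 genes were higher and 13 lower with an adjusted p below 0.05, beside 17.1% and 23.8% of all genes. With the 75th percentile all 12 corepressor subunits had a negative change (median -0.48), and 7 of 9 acetyltransferases and coactivators a positive one (median 0.15). Of all 17402 genes tested, 9946 had a negative change and 7456 a positive one.

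HDAC10, a class IIb deacetylase known to act on acetylated polyamines, was -0.25 and -0.31 in siCONT mock cells, -0.15 and -0.34 after depletion, -2.62 and -2.26 in siCONT cells with TSA, and -1.73 and -1.80 in depleted cells with TSA. Its TSA arrays lay below the mock arrays without overlap, and the siCONT arrays with TSA were the lowest. The change with TSA in siCONT cells was -2.16 ± 0.16 log2 (SE), or 4.46-fold lower (adjusted p = 0.000546). In the class IIb paralog HDAC6, the cytoplasmic tubulin deacetylase, all 8 arrays lay between 2.08 and 2.33, and the change with TSA was 0.02 with an interval from -0.23 to 0.28.

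The mitochondrial sirtuin SIRT3 was 3.60 and 3.62 in the control, 3.36 and 3.66 after depletion, 2.08 and 2.10 in siCONT cells with TSA, and 2.58 and 2.69 in depleted cells with TSA. Its change with TSA in siCONT cells was -1.52 ± 0.14 (SE, adjusted p = 0.000968), and A_33_P3325068, another probe of the gene, gave -1.42. SIRT2, a mainly cytoplasmic deacetylase, moved the opposite way. It was -1.11 and -0.94 in the control, -0.77 and -0.36 after depletion, 0.51 and 0.46 with TSA, and 1.02 and 1.14 with both, so that each group lay above the one before it without overlap. TSA raised it by 1.51 ± 0.17 in siCONT cells (adjusted p = 0.00174), and its probes A_33_P3271800 and A_33_P3258946 gave 1.51 and 1.57. Both siCONT changes had an adjusted p above 0.05 with the siCONT pairs as 1 sample (0.0936 for SIRT3 and 0.107 for SIRT2).

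The 60-base probes that read SIRT2, HDAC10 and, as its second probe, SIRT3 are printed because these are the deacetylase genes with the largest calls under TSA. They are given 5′ to 3′ as in the array annotation, all in lower case since no part is singled out, with positions on hg19 from the array files. All 4 lie on the minus strand: SIRT2 A_33_P3258946 at chr19:39379734-39379793, SIRT2 A_33_P3271800 at chr19:39370273-39370332, SIRT3 A_33_P3325068 at chr11:224067-224126 and HDAC10 A_23_P368740 at chr22:50685388-50686172, where the last spans 785 bases of genome and so bridges an intron.
SIRT2 A_33_P3258946: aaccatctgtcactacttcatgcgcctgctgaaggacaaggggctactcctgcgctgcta
SIRT2 A_33_P3271800: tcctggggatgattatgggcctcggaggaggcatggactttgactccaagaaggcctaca
SIRT3 A_33_P3325068: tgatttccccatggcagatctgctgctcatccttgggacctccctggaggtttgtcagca
HDAC10 A_23_P368740: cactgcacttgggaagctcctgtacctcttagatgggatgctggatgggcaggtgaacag

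The class I enzymes are direct targets of TSA, and the probes that stand for these 4 genes did not pass the test with TSA in siCONT cells. HDAC1 was 5.16 and 5.20 in the control, 5.50 and 5.04 after depletion, 5.06 and 5.10 with TSA, and 5.24 and 4.63 with both. Its change with TSA in siCONT cells was -0.10 with an interval from -0.68 to 0.48. HDAC2 was 4.30 on both control arrays, 4.52 and 3.93, 4.60 and 4.58, and 3.77 and 3.93 in the same order, and its TSA change of 0.29 did not pass (interval from -0.20 to 0.78). Its second probe, A_33_P3309924, changed by 0.53 with TSA in siCONT cells (adjusted p = 0.0208), under 2-fold. On that probe the mean level was higher with both treatments (-1.48) than in the control (-1.96), opposite to the probe that stands for HDAC2. HDAC3, the catalytic subunit of NCoR complexes, was 4.32 and 4.29 in the control, 4.11 and 4.04 after depletion, 3.39 and 3.31 with TSA, and 4.01 and 3.53 with both. Its change with TSA in siCONT cells was -0.95 ± 0.17 (SE, adjusted p = 0.00826), 1.94-fold lower and so under the 2-fold limit.

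The probes of HDAC8 did not all move the same way. Its 4 probes, in order from 5′ to 3′, changed with TSA in siCONT cells by 0.52 (A_33_P3296789, adjusted p = 0.0343), 0.47 (A_24_P254965), 2.07 (A_33_P3296807, adjusted p = 0.000396) and -0.86 (A_23_P84922, adjusted p = 0.00838). In depleted cells, which share no array with that comparison, TSA changed them by 0.42, 0.57, 1.43 and -0.72. The third probe is assigned to the transcript NM_001166419 and lies at chrX:71694436-71694495 (hg19). The second and the fourth probe, which changed in opposite directions, are both assigned to NM_018486. Whether the transcripts of HDAC8 or the probes account for the difference was not tested. The other 3 are printed to show where along the gene the opposite changes were read, on the minus strand at chrX:71792503-71792562, chrX:71787823-71788605 and chrX:71571676-71681900. The last of these covers 110225 bases of genome with its 60 bases, so it bridges introns.
HDAC8 A_33_P3296789: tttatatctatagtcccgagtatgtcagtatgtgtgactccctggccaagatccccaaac
HDAC8 A_24_P254965: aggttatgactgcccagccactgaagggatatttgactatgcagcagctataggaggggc
HDAC8 A_23_P84922: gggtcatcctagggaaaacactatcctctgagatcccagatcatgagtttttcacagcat

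Other genes with several probes were mixed. The 4 probes of RBBP4 fell in depleted cells with TSA by 1.34, 1.40, 1.36 and 1.41 log2, and none passed the test in siCONT cells, where they changed by -0.83 to -0.20. SIRT5, a mitochondrial desuccinylase, was the opposite case. A_23_P307955 (NM_031244) rose with TSA in siCONT cells by 1.65 (adjusted p = 0.00212), while its other 3 probes had changes of -0.05, 0.30 and 0.48 that did not pass. The change of 0.48 came from A_33_P3271755, which is also assigned to NM_031244. A_23_P307955 rose with depletion under mock too (1.02, adjusted p = 0.0352 by limma, and 0.363 with the siCONT pairs as 1 sample). This probe was above background on 7 arrays and dim in the control (-3.28 and -2.73). The 3 probes of BRD3 that were above background changed by -0.71, -0.54 and -0.58 under the combined treatment.

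**Figure D2:**
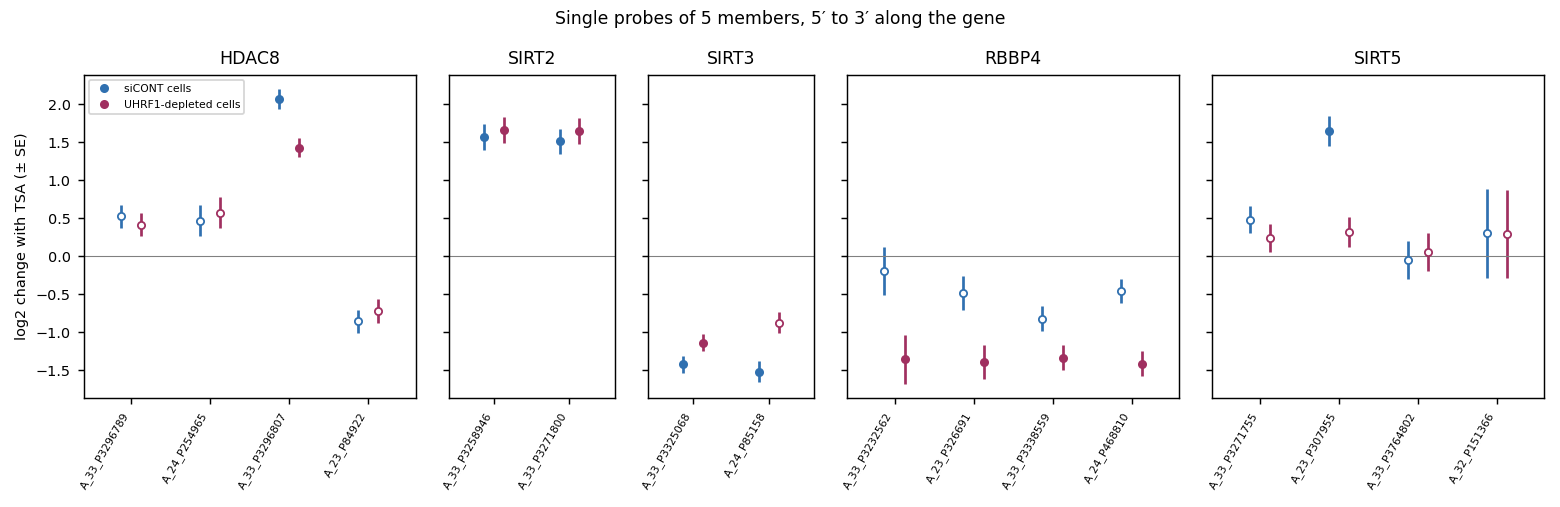
Change with TSA (log2, ± SE) read by each probe of HDAC8, SIRT2, SIRT3, RBBP4 and SIRT5, ordered 5′ to 3′ along the gene, in siCONT cells and in UHRF1-depleted cells; filled points passed the test. Probes of SIRT2 and SIRT3 share a direction within each gene, those of RBBP4 run from -0.83 to -0.20 in siCONT cells and from -1.41 to -1.34 in depleted cells, those of HDAC8 run from -0.86 to 2.07, and 1 of the 4 SIRT5 probes stands at 1.65.

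In UHRF1-depleted cells, TSA lowered CHD3, HDAC10, RBBP4, KAT2A, BRD8 and MTA1 and raised SIRT2. That is 6 and 1 of 46 tested genes, beside 9.07% and 12.2% of all genes. All 7 of these genes also passed with the siCONT pairs as 1 sample, where 18.2% of all genes did. At any fold, 19 genes were lower with an adjusted p below 0.05 and 1 was higher, whereas 21.3% of all genes were lower and 18.8% higher. With scaling to the array median, 16 genes fell. The changes were -1.93 ± 0.16 for CHD3, -1.52 ± 0.16 for HDAC10, -1.34 ± 0.17 for RBBP4, -1.18 ± 0.11 for KAT2A, -1.08 ± 0.11 for BRD8, -1.05 ± 0.12 for MTA1 and 1.65 ± 0.17 for SIRT2 (log2, SE). RBBP4 was 4.02 and 3.84 in depleted cells with mock and 2.80 and 2.39 with TSA. MTA1 was 4.53 and 4.77 with mock and 3.58 and 3.62 with TSA, so neither gene overlapped between the agents.

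The TSA changes in siCONT cells and in depleted cells rest on different arrays. CHD3 (-1.99 and -1.93), HDAC10 (-2.16 and -1.52), KAT2A (-1.02 and -1.18) and SIRT2 (1.51 and 1.65) passed in both. Of the 45 genes above background on all arrays, 29 had a TSA change of the same sign in siCONT cells and with each siRNA. Of those, 27 were lower with TSA and 2, SIRT2 and HDAC8, were higher. The share of all genes with such agreement was not counted. Among all genes tested, 9946 of 17402 had a negative TSA change in siCONT cells and 9436 of 17976 in depleted cells. The slide row moved with TSA in both comparisons.

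**Figure D3:**
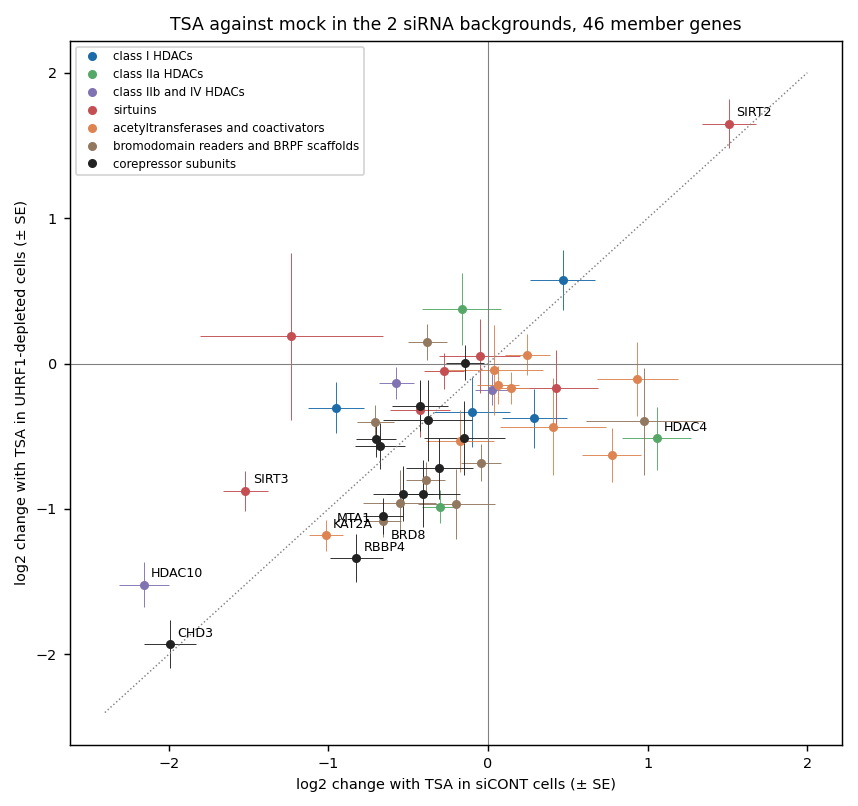
Change with TSA (log2, ± SE) of 46 tested genes in siCONT cells (x axis) against the change in UHRF1-depleted cells (y axis), coloured by class, with the diagonal dotted and genes named where they passed the test in either. SIRT2 stands alone at the upper right, CHD3 and HDAC10 at the lower left, and HDAC4 at the right with 1.06 and -0.51.

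The sequences upstream of genes that moved with TSA are shown beside these results. RefSeq windows on GRCh38.p14 were found for 43 of the 47 genes, and 25 genes had a single window. Of the 6 genes that TSA changed in siCONT cells, HDAC4 had several windows, and the other 5 are printed as the 250 bases before the annotated start, 5′ to 3′ in the direction of the gene. Capitals mark 3 motifs, searched on both strands: the GC box GGGCGG (or CCGCCC), the CCAAT box CCAAT (or ATTGG), and ACTACAA (or TTGTAGT), which was added after the windows had been read. They occur in 42.6%, 32.0% and 2.47% of all 35116 windows of this length. SIRT2 is at chr19:38899619-38899868, SIRT3 at chr11:236932-237181, HDAC10 at chr22:50251266-50251515 and KAT2A at chr17:42121368-42121617, all on the minus strand, and CHD3 is at chr17:7888539-7888788 on the plus strand.
SIRT2: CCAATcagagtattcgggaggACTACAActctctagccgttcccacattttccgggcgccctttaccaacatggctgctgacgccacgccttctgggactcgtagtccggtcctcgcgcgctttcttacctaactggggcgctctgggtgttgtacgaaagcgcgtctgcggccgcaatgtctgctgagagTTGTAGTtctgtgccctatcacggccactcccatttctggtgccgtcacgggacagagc
SIRT3: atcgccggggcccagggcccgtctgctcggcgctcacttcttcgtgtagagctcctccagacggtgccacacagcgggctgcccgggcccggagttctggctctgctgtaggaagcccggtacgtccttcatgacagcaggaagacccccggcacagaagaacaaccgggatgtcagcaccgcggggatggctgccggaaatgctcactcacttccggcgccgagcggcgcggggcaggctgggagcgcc
HDAC10: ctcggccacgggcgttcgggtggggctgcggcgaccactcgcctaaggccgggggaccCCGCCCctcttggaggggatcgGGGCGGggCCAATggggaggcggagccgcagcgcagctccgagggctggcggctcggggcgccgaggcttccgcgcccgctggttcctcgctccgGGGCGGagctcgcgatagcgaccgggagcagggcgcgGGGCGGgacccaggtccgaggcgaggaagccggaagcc
CHD3: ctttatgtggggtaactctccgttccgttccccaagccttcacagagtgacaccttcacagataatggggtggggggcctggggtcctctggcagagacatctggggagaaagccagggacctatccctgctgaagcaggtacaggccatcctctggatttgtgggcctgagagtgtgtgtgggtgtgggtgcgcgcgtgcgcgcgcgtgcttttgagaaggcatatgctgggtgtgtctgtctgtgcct
KAT2A: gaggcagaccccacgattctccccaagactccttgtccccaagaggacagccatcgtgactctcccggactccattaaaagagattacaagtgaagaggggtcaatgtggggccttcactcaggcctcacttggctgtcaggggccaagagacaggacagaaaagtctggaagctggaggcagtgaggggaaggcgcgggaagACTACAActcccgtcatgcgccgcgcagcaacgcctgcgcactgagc

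The window of HDAC10 had 4 matches to the GC box and 35 CpG sites, beside a median of 11 over all windows. SIRT3 had 24 CpG sites, SIRT2 20, KAT2A 11 and CHD3 9. A CCAAT box stood in the windows of SIRT2 and HDAC10, which moved in opposite directions with TSA. ACTACAA was matched by SIRT2, which rose, at 2 places and by KAT2A, which fell, at 1 place. The windows of SIRT3 and CHD3 held none of the 3 motifs. These are descriptions of the letters in the windows and no binding was measured.

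UHRF1 depletion alone changed few of these genes. Under mock, CREBBP and HDAC4 rose and no gene fell, that is 2 and 0 of 46 tested genes, beside 3.30% and 0.900% of all genes. With the siCONT pairs as 1 sample, limma called none of the genes (2 at an unadjusted p below 0.05), and 0.0238% of all genes passed. BRD2 had a change of -0.59 with an adjusted p of 0.0426, under 2-fold. The median change was -0.07 beside -0.10 for all genes.

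CREBBP was -1.07 and -1.03 in siCONT mock cells, -0.02 with siUHRF1-1 and 0.51 with siUHRF1-2, -0.30 and -0.25 in siCONT cells with TSA, and -0.33 and -0.44 with both treatments. The control arrays were the lowest of all, and the 3 treated groups lay above them without overlap. The rise with depletion under mock was 1.29 ± 0.19 log2 (SE), 2.45-fold (adjusted p = 0.0192, and 0.353 with the siCONT pairs as 1 sample). EP300 was -0.49 and -0.34, 0.34 and -0.46, 0.49 and 0.55, and -0.18 and -0.15 in the same groups. Its siUHRF1-1 array lay above the control under mock and its siUHRF1-2 array did not, and the change of 0.36 had an interval from -0.26 to 0.97. EP300 had a change of 0.94 with TSA in siCONT cells (adjusted p = 0.0294), under 2-fold.

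HDAC4, a class IIa deacetylase that shuttles between nucleus and cytoplasm, was -0.24 and -0.31 in the control, 0.57 and 0.93 after depletion, 0.80 and 0.76 with TSA, and -0.04 and 0.52 with both. It rose with depletion under mock by 1.02 ± 0.22 (SE, adjusted p = 0.0434) and with TSA in siCONT cells by 1.06 ± 0.22 (adjusted p = 0.0122), and neither call held with the siCONT pairs as 1 sample (adjusted p = 0.507 and 0.241). Under mock, neither HDAC4 nor CREBBP was called once any 1 of the 4 siCONT arrays was left out. The class IIa paralog HDAC5 had changes of 0.02 and -0.17 in these comparisons, neither past the test.

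The interaction term measures how far depletion and TSA together departed from the sum of their single effects. HDAC4 and CREBBP were the only tested genes of the list in which it passed, and neither passed with the siCONT pairs as 1 sample. The interaction was -1.57 ± 0.31 log2 for HDAC4 (SE, adjusted p = 0.0437) and -1.40 ± 0.26 for CREBBP (adjusted p = 0.0401). That is 2 of 46 tested genes past the test with a negative term and 0 with a positive one, where 2.03% and 3.01% of all genes passed in these directions. Of the 46, 28 had a negative term of any size with the 75th percentile, as did 8380 of all 18413 genes tested. With the siCONT pairs as 1 sample, limma called neither (2 genes at an unadjusted p below 0.05), and 0% of all genes passed. Leaving out any 1 of the 4 siCONT arrays, or the siUHRF1-1 array with TSA, also took the count to 0. With this scaling all 9 acetyltransferases and coactivators had a negative term, with a median of -0.31, beside 0.08 for all genes.

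Under TSA, depletion lowered HDAC7 and ATAD2. These are 2 of 46 tested genes, with no gene raised, where 2.88% of all genes fell and 5.91% rose. With the siCONT pairs as 1 sample none passed (4 at an unadjusted p below 0.05), where 0.797% of all genes did. HDAC7, a class IIa deacetylase, was 1.18 and 1.14 in the control, 0.77 and 0.83 after depletion, 0.88 and 0.84 with TSA, and -0.25 and -0.12 with both. The arrays with both treatments were the lowest, without overlap. The change with depletion under TSA was -1.04 ± 0.11 (SE, adjusted p = 0.00536), and under mock it was -0.36 (adjusted p = 0.0941). The interaction term of HDAC7 was -0.68 with an adjusted p of 0.0584, so the 2 changes were not shown to differ. ATAD2 fell under TSA by 1.08 ± 0.24 (adjusted p = 0.0315).

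At any fold, 4 of 46 genes lay higher with depletion under TSA with an adjusted p below 0.05 and 6 lower, beside 9.72% and 8.61% of all genes. With scaling to the array median these counts were 0 and 18, beside 5.43% and 21.3% of all genes. With the siCONT pairs as 1 sample no gene of either direction had such an adjusted p (4 genes at an unadjusted p below 0.05 by limma). By that fit 0.775% of all genes were higher and 0.0223% lower. HDAC11, the class IV deacetylase, was -0.88 and -0.85 in siCONT cells with TSA and 0.00 and -0.11 in depleted cells with TSA, a change of 0.81 ± 0.11 (SE, adjusted p = 0.00896, and 0.278 with the siCONT pairs as 1 sample). Another probe of HDAC11, A_33_P3417944, rose by 1.19 in this comparison (adjusted p = 0.0131, and 0.201 with the siCONT pairs as 1 sample). SIRT7 changed by 0.73, HDAC10 by 0.67 and SIRT3 by 0.55, each with an adjusted p below 0.05. HDAC10 and SIRT3 are genes that TSA lowered in siCONT cells, and both comparisons use the siCONT arrays with TSA. Their interaction terms, 0.64 and 0.65, had adjusted p-values of 0.131 and 0.101 and did not pass.

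**Figure D4:**
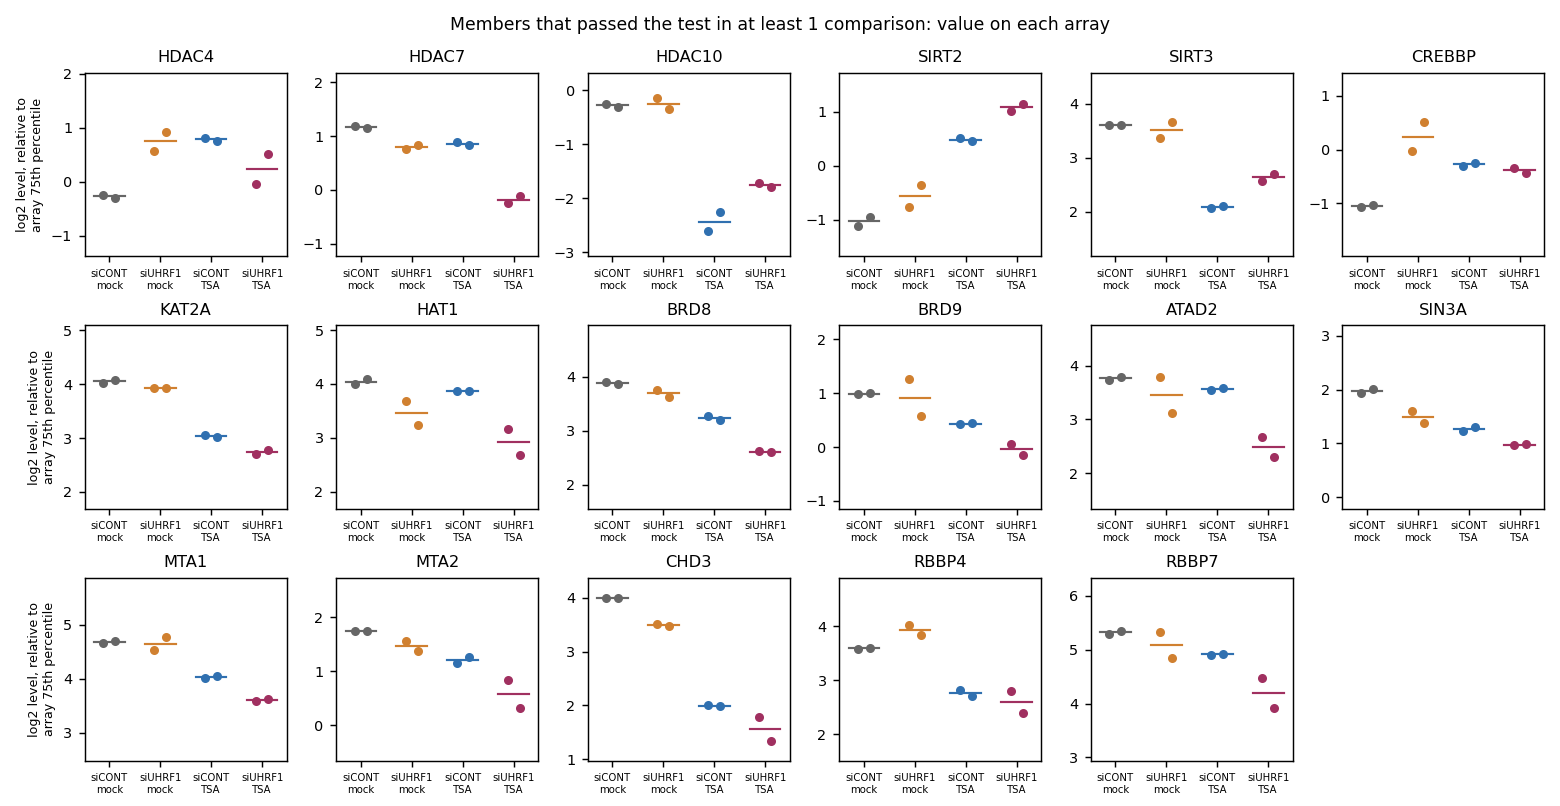
Levels (log2, relative to the 75th percentile of each array) of the 17 genes that passed the test in at least 1 comparison, on each array, with the group mean as a line; in siUHRF1 groups the left point is siUHRF1-1 and the right point siUHRF1-2. All panels span the same log2 range, and the points of a siUHRF1 group are up to 0.68 log2 apart.

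The 2 siRNAs against UHRF1 differed more from each other than the siCONT arrays did. The median absolute difference over the 45 genes was 0.22 log2 between the siRNAs under mock and 0.19 under TSA, against 0.04 and 0.05 between the siCONT arrays. SIRT4 was the least settled gene. It also had the widest gap of the 45 genes between the siCONT arrays, 0.63 under mock and 0.44 under TSA. In depleted cells with TSA it stood at -0.63 with siUHRF1-1 and -2.38 with siUHRF1-2. NCOA3, a steroid receptor coactivator, was -1.24 and -0.42 on these arrays, and its change of -1.03 under TSA did not pass (interval from -1.84 to -0.21, adjusted p = 0.084).

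A further 100 genes of the same machinery were listed, of which 93 are named on the array and 91 were tested. Under the combined treatment 4 rose and 12 fell, where 15.3% and 11.1% of all genes did, and with the siCONT pairs as 1 sample 7 passed, where 16.2% of all genes did. The 27 other corepressor subunits tested had a median change of -0.33 (2 rose, 2 fell). For the 29 other acetyl-lysine readers it was -0.44 (0 rose, 5 fell). The 4 genes of the 91 that rose were CLOCK (1.86), GPS2 (1.24), TADA2B (1.23) and SAP18 (1.19). The largest falls were those of MSL1 (-2.63), SP100 (-2.07), KAT8 (-1.98), PHF15 (-1.83) and ACSS2 (-1.37). KAT8 is the catalytic subunit of the MSL complex that acetylates H4K16, and MSL1 is the scaffold of that complex, while ACSS2 makes acetyl-CoA from acetate. GPS2 is a subunit of the NCoR complex and TADA2B an adaptor of SAGA. Depletion under mock raised TADA2B (1.48) and RCOR2 (1.37) and lowered none of the 91.

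With TSA in siCONT cells, 6 of the 91 rose and 8 fell, where 10.4% and 8.32% of all genes did. CLOCK (1.75), TADA2B (1.68), ING3 (1.31) and BRMS1L (1.19) were among those that rose. RCOR2 (-2.09), SLC25A1 (-1.80), ACSS2 (-1.72), KAT8 (-1.64) and MSL1 (-1.43) fell. With the siCONT pairs as 1 sample, the adjusted p-values of these 9 genes were 0.0713 (KAT8) or higher. SLC25A1 carries citrate out of mitochondria and feeds, as ACSS2 does, the acetyl-CoA pool of the cytoplasm and nucleus. These 2 genes had changes of -1.02 and -1.05 in depleted cells with TSA and fell there too, with adjusted p-values of 0.0576 and 0.0516 when the siCONT pairs were 1 sample.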

How the data were processed

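RNA of DLD1 cells was measured on 8 one-colour Agilent SurePrint G3 Human GE v2 arrays (Cy3, 100 ng total RNA). The deposited scanner files hold processed intensity values that the authors obtained with Feature Extraction 10.7.3.1, in which a spatial detrend surface was subtracted as background and no spot was saturated. Coordinates in these files are on hg19. The value table that the authors deposited holds the same processed signals (ratio 0.995 to 1.00). GeneSpring GX is named in the study's methods, and its normalization is not given in the sources used here.

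Control and outlier spots were left out, repeated spots averaged, and log2 values scaled to the 75th percentile of each array. limma 3.58.1 in R 4.3.3 (lmFit, eBayes) fitted 4 group means over 24589 probes (4 residual and 2.17 prior degrees of freedom). A probe was tested if well above background on both arrays of a compared group. Calls needed a Benjamini-Hochberg adjusted p below 0.05 and a 2-fold change, two-sided. The fit was tested on simulated data. Between 43.3% and 48.0% of probes were well above background. The number of arrays limits the precision.

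The sources do not say whether arrays of a group came from separate cultures, so p-values may measure technical spread. Members, lists and tests were chosen with earlier results of these data known. All members could be named. Values per array are given for called genes, HDAC1, HDAC2, HDAC3, CREBBP, EP300 and KAT2B, and where probes or paralogs differ, and up to 5 further genes of the machinery in each direction are named. The result of 1 such gene is not reported here. The 4 siRNA against agent groups share replicate numbers. Correlations of replicate differences were 0.34 between the siUHRF1 groups, which share siRNAs, and -0.06 to 0.07 between the other pairs of groups, so the number was not used as a block. Upstream windows are from RefSeq (GRCh38.p14).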

Additional observations from a re-analysis of the deposited data

Results flagged for a closer look

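The difference between mock and TSA in the effect of UHRF1 depletion on HDAC4 was itself tested. It passed with each siCONT array counted separately and not with the siCONT pairs as 1 sample. The interaction was -1.571 log2 (limma, adjusted p = 0.0437), with changes of 1.02 under mock and -0.55 under TSA. With the siCONT pairs counted as 1 sample the adjusted p was 0.496. CREBBP met the same criterion with an interaction of -1.4028 log2 (limma, adjusted p = 0.0401), from changes of 1.29 under mock and -0.11 under TSA, and its adjusted p was 0.501 with the siCONT pairs as 1 sample. SIRT5 had an interaction of -1.34 on A_23_P307955 alone, whereas the other 3 probes of that gene had terms between -0.24 and 0.11 that did not pass.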

How the results depend on the processing

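None of the 32 gene calls over the 6 comparisons changed direction under any alternative. The direction and the call were kept by 32 with median scaling, 21 with quantile normalization, 20 with the 75th percentile of detected probes, 21 after normexp, 27 with no filter on dim probes and 14 with the siCONT pairs as 1 sample. For UHRF1 depletion under mock the count of 2 genes became 1 with quantile normalization and with the replicate block, and 0 after normexp, with no dim filter, with the siCONT pairs as 1 sample, with the replicate block within siRNA arm and by the methods' t-test after Benjamini-Hochberg adjustment, while limma gave 12 genes at an unadjusted p below 0.05. For TSA in siCONT cells the count of 6 became 1 with the siCONT pairs as 1 sample, 17 with no fold minimum and 10 when all probes were counted. For the combined treatment the count of 13 became 7 with quantile normalization and with the percentile of detected probes, 21 with median scaling, 6 with the siCONT pairs as 1 sample, 8 with the replicate block within siRNA arm and 25 with no fold minimum. For depletion under TSA the count of 2 became 7 with median scaling, 1 after normexp and with no dim filter, 10 with no fold minimum, and 0 with the percentile of detected probes, with the siCONT pairs as 1 sample and by the adjusted t-test (23 at an unadjusted p below 0.05 by limma). For TSA in depleted cells the count of 7 became 17 with median scaling, 20 with no fold minimum, 13 with all probes and 0 by the adjusted t-test (7 unadjusted). For the interaction the count of 2 became 1 with quantile normalization, the percentile of detected probes and normexp, and 0 with no dim filter, the siCONT pairs as 1 sample, the replicate block, the replicate block within siRNA arm and the adjusted t-test (12 at an unadjusted p below 0.05 by limma). The cause was not tested. With median scaling the median change of all genes was -0.54 for the combined treatment, -0.34 for depletion under TSA and -0.43 for TSA in depleted cells. Leaving out 1 array gave 0 to 2 genes for depletion under mock, 4 to 7 for TSA in siCONT cells, 10 to 15 for the combined treatment, 0 to 3 for depletion under TSA (0 without either siCONT array with TSA), 7 to 11 for TSA in depleted cells (11 without siUHRF1-1 with TSA) and 0 to 4 for the interaction (4 without siUHRF1-2 with mock). A group left with 1 array was assumed to vary like the others. The replicate numbers do not pair siCONT with siUHRF1 arrays, and the replicate block moved no other count by over 1.5 times. Signal over background limits HDAC9, NCOA2 and the dim second probes.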
